A study of Drosophila melanogaster with 47 samples.

Results

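Binding of Notch in larvae was described from the whole list of Notch peaks, regions where chromatin immunoprecipitation followed by sequencing (ChIP-seq) recovered more DNA than background. The list holds 2516 of the 12745 peaks of the study, and no peak was selected by its values. Of these peaks, 2448 lie on the 6 chromosome arms (2L, 2R, 3L, 3R, X and 4) of Drosophila melanogaster and 68 lie on scaffolds not placed on an arm. The study holds 47 samples, with 16 peak lists, 1 for each immunoprecipitated group, and covers 14 regulators, Notch and 13 others. The Notch group comprised 2 immunoprecipitated samples of larvae (stage label W3L) whose source is given as Notch-GFP, and it was set beside 1 Notch input, chromatin without immunoprecipitation. The antibody was the Abcam anti-GFP antibody ab290. The promoter or driver of the tagged protein is not given in the sources used here, nor are the tissues that were taken.

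Notch is a receptor at the cell surface. When it binds a ligand on a neighbouring cell it is cut, and its intracellular domain enters the nucleus. The intracellular domain does not bind DNA by itself. It acts there with the DNA-binding protein Su(H) and the coactivator Mastermind on target genes, many of which encode repressors of the HES family. In larvae this pathway is known for its part in the growth and patterning of the imaginal discs and in the choice of neural fates.

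The other lists fall into groups by what the proteins do. Su(H) (Kc167 cells), the DNA-binding partner of Notch, insv (Kc167 cells), a corepressor known to act with Su(H), and h (Kc167 cells), a repressor of the HES family, belong to the pathway or to the protein family of its targets. Cmi (embryos of 0 to 8 h) is part of a histone methyltransferase coactivator complex. AbdB, a Hox protein, Hr78, a nuclear receptor, and Lola, a zinc finger protein, were mapped in larvae of the same stage label with the same anti-GFP antibody, each with 2 samples and 1 input. Hr78 was also mapped with anti-GFP in embryos of 8 to 16 h, as was Stat92E, the transcription factor of the JAK-STAT pathway, in embryos of 0 to 12 h. The remaining lists were those of br (embryos of 0 to 8 h), CG8478 (S2 cells), cnc (adult females), prd with the antibodies RF12 and RF13 (embryos of 0 to 12 h) and dm (Kc167 cells). Kc167 and S2 are cell lines of embryonic origin. The 4 larval lists were all made with anti-GFP, so stage and antibody cannot be told apart among them. Su(H) was mapped in a cell line and Notch in larvae, so a place where 1 of the pair was called and the other was not cannot be told apart from the difference in material. The lists hold no expression values, so neither the stage nor the tissue could be checked by marker genes.

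Read depth per sample is unknown, and each group has 1 list with no value per replicate. Every interval below is a 95% exact Clopper-Pearson interval that covers counting error over peaks and no spread between samples. Peaks of 1 list are not replicates, and no test between classes of peaks was made. Of the peaks, 2.70% lay on scaffolds in the Notch list, between 0.0991% in the Su(H) list and 39% in the dm list. The positions below are those of build dm3, counted from 1. No genome or annotation of that build was used here, so the genes at the named positions were not looked up and no sequence is shown.

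Notch peaks were short regions spread over every arm. On the arms their median width was 395 bp, with the middle 50% between 228 and 643.25 bp, and the narrowest and widest had 64 and 2879 bp. Together they covered 1179.86 kb. The authors' fold enrichment over background had a median of 3.03 and ran between 2.03 and 7.81. The authors' score, −log10 of the p-value of a peak, had a median of 10.3 and ran between 6.48 and 51.8. Score and fold went together over the 2448 peaks (Spearman's rho 0.91), and score and width less closely (0.57). These peaks come from the same libraries, so the coefficients describe the list. Many peaks carried the same values, with 1381 distinct folds and 28 peaks at the most frequent fold, 2.85.

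The summit, the position of the highest signal in a peak, lay near the middle of most Notch peaks. It fell within the central 50% of the width in 1846 peaks (75.4%), at a median of 54.5 bp from the centre. It was nearer the lower coordinate in 1257 peaks (51.3%), so the list showed little lean to either side. In the other larval lists the summit lay in the central 50% of the width in 76.9% of AbdB, 73.6% of Hr78 and 83.5% of Lola peaks.

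Arm 3R carried 569 Notch peaks, X 523, 2R 455, 3L 450, 2L 387 and the small arm 4 carried 64. Relative to the length between the outermost peaks of all lists, arm 4 had 52.4 peaks per Mb, X 23.5, 2R 21.6, 3R 20.4, 3L 18.4 and 2L 16.9. Arm 4 was thus the densest and also had the highest median score, 14.1, against 9.91 to 10.7 on the other arms. X held 21.4% of the Notch peaks (19.8 to 23.0), beside its share of the larval Hr78 list at 21.9% (19.7 to 24.3) and of the AbdB list at 23.3% (20.2 to 26.5). In the 119 windows of 1 Mb on the arms other than 4, the count lay between 2 and 39 peaks with a median of 20. Windows ran on each arm only to the last one with a Notch peak, so any beyond it were not counted.

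Notch peaks often stood beside another Notch peak. Of the 2442 gaps between neighbouring peaks on an arm, 616 (25.2%) were at most 5000 bp long, while the median gap was 21249.5 bp. Peaks joined by gaps of at most 5000 bp are called a run here. There were 429 runs of at least 2 peaks, holding 1045 peaks (42.7%, 40.7 to 44.7), and 1403 peaks stood singly. Runs of 2 peaks numbered 305, runs of 3 numbered 82 and runs of 4 numbered 30, and 12 runs held more than that, up to 7 peaks. By the same measure, the share of peaks in runs was 40.8% in the larval Hr78 list, 23.4% in AbdB and 17.4% in Lola, and it was higher than in Notch for CG8478 (57.7%), Cmi (61.4%) and Su(H) (68.9%). These lists differ in length and were not cut to 1 length, so the part of length in these shares was not tested. Some neighbours were close enough to be parts of 1 broad region, since 144 gaps were at most 100 bp and 226 at most 300 bp. Joining the latter gave 2222 regions, of which 31.1% were in runs.

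The 5 runs with the most Notch peaks each also held Su(H). Su(H) was at 18.5% of all Notch peaks and at 37.6% of those in runs of 4 or more. At least 1 overlap in a run of this many peaks is thus not shown to be unusual. The longest by number on 2R, 6305633 to 6318218 (12586 bp), had 7 Notch peaks. Each of these overlapped both Su(H) and larval Hr78, while 5 of them overlapped Cmi, 5 CG8478, 4 AbdB and 1 insv. This run met 8 separate Su(H) peaks and reached a Notch score of 31.2. On X, 7950637 to 7958009 (7373 bp), 6 of 7 Notch peaks overlapped Su(H), 4 Cmi, 4 AbdB and 4 larval Hr78, over 7 Su(H) peaks, with a highest score of 25.3. On 3R, 5904857 to 5915519 (10663 bp), 5 of 7 Notch peaks overlapped Su(H), 4 CG8478 and 3 larval Hr78, over 6 Su(H) peaks, and the highest score was 12.4. Both remaining runs lay on 3L and had 6 peaks each. The one at 17556622 to 17571577 overlapped Su(H) at 4 peaks and insv at 2, while the one at 616550 to 628622 overlapped Cmi at 4 peaks and Su(H) at 2. A sixth run of 6 peaks on arm 4, 76752 to 88491, fell outside the rule by its shorter length and was chosen after its values were seen. It overlapped no Su(H) peak, and held larval Hr78 at 3 peaks and Cmi at 2.

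The longest stretch without a Notch peak was 677.025 kb on 2L (17473305 to 18150329), and the other lists together had 7 peaks there, none of them Su(H) or larval Hr78. The longest stretch on 3R, 624.931 kb (23503353 to 24128283), held 4 peaks of other lists, 3 of them Su(H). On 2R, 527.594 kb (6533089 to 7060682) held 22, and on 3L, 521.219 kb (12118120 to 12639338) also held 22. Those on 2R included 6 of Cmi and 4 of Su(H), and those on 3L 5 of Su(H), 5 of CG8478 and 4 of cnc. On X, 449.126 kb (11923176 to 12372301) held 7, of which 5 were Su(H). On arm 4 the longest gap was 97.199 kb (231144 to 328342) and held no peak of any list. None of these 6 gaps held a larval Hr78 peak, and 2 AbdB peaks and 1 Lola peak were all that the other larval lists had there. The gaps were chosen for holding no Notch peak, and 84.5% of larval Hr78 and 90.9% of AbdB peaks overlapped a Notch peak. Few peaks of these 2 lists could thus lie in such gaps, and no share over all peaks was set beside these counts.

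About 2 in every 3 Notch peaks lay where another regulator had also been called, with at least 1 bp in common. The like share was not computed for the peaks of the other lists, so it is not shown to be high or low. Larval Hr78 was found at 968 Notch peaks (39.5%, 37.6 to 41.5), AbdB at 636 (26.0%, 24.3 to 27.8) and embryonic Hr78 at 547 (22.3%, 20.7 to 24.0). Among the peaks of all other lists the same measure gave 23.6% for larval Hr78, 18.2% for AbdB and 13.1% for embryonic Hr78, so the 3 shares stood above this background. The other larval lists had such shares too. Larval Hr78 was at 63.2% of AbdB peaks and 38.6% of Lola peaks, AbdB at 37.2% of larval Hr78 peaks and 25.3% of Lola peaks, and embryonic Hr78 at 34.1% of AbdB peaks and 26.6% of Lola peaks. Counted from their own peaks, 656 of 722 AbdB peaks (90.9%) and 1055 of 1249 larval Hr78 peaks (84.5%) overlapped Notch. So did 162 of 316 Lola peaks (51.3%). These lists are shorter than the Notch list, which limits the shares of Notch peaks they can reach. For a list of 1 regulator, the background leaves out the peaks of Notch and of that regulator itself. The lists differ in peak width, with medians from 158 bp for Lola to 411.5 bp for Cmi, and wider peaks have more room to overlap.

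Over the whole list, Su(H), insv and h did not stand above the background at Notch peaks. Su(H) was found at 453 Notch peaks (18.5%, 17.0 to 20.1), against 24.4% of the peaks of other lists. The corepressor insv was found at 62 (2.53%, 1.95 to 3.24), against 4.40%, and h at 68 (2.78%, 2.16 to 3.51), against 3.48%. In the highest quartile of Notch peaks by score, h was at 5.23% (3.60 to 7.30), above a background taken without a score cut. There insv was at 4.08% (2.66 to 5.97) and Su(H) at 19.8%. The backgrounds of Su(H), insv and h each include other lists of Kc167 cells, so they are not matched to larvae. The coactivator subunit Cmi was found at 456 (18.6%, 17.1 to 20.2), against 23.1%. CG8478, a protein of unknown function, was found at 498 (20.3%, 18.8 to 22.0), against 22.7%.

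The other lists were at few Notch peaks. Lola was found at 154 (6.29%, 5.36 to 7.33), against 4.95% in other lists, and Stat92E at 106 (4.33%, 3.56 to 5.21), against 4.32%. The zinc finger protein br was at 86 (3.51%), against 3.20%, and cnc, a fly protein related to Nrf2 of mammals, at 54 (2.21%), against 2.81%. The pair-rule protein prd was at 84 with RF12 (3.43%, background 2.39%) and at 17 with RF13 (0.694%, background 1.39%). The fly Myc protein dm was at 20 (0.817%), against 0.663%. For h, Stat92E, br, cnc and dm the interval of the Notch share included the background.

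**Figure D1:**
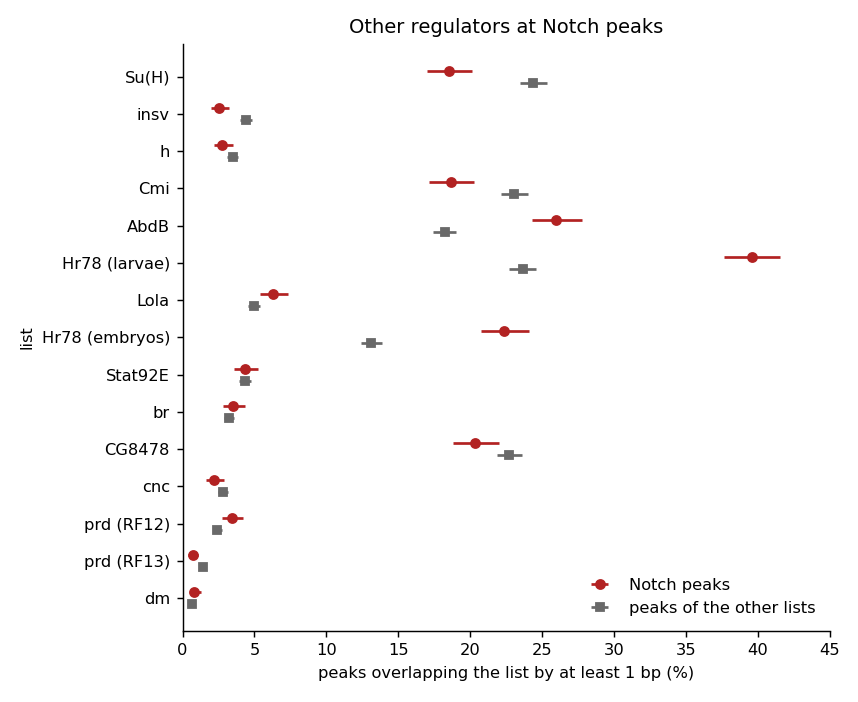
Share of peaks (%, horizontal axis) that overlap each list (vertical axis) by at least 1 bp, for the 2448 Notch peaks (circles) and for the peaks of the other lists (squares), with 95% exact intervals for counting error. Larval Hr78 is at 39.5% of Notch peaks against 23.6% of others, and Su(H) at 18.5% against 24.4%.

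Over the whole lists, the Su(H) and CG8478 shares at Notch peaks lay below those at AbdB and larval Hr78 peaks. Su(H) was at 18.5% of Notch peaks, against 302 of 1249 larval Hr78 peaks (24.2%, 21.8 to 26.7), 199 of 722 AbdB peaks (27.6%, 24.3 to 30.98) and 54 of 316 Lola peaks (17.1%, 13.1 to 21.7). The Notch share was thus nearest that of Lola. CG8478 was at 20.3% of Notch peaks, against 34.8% of AbdB peaks, 29.5% of larval Hr78 peaks and 14.2% of Lola peaks. The counting interval of each Notch share lay below those of AbdB and larval Hr78, and the difference was not tested, since many of these peaks overlap one another. The Notch list is also longer than these lists. Among the higher-scoring 50% of Notch peaks, Su(H) was at 21.4% and CG8478 at 27.8%. Both were nearer to the larval Hr78 shares, and the part of list length was not tested.

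Counted by regulator, with both Hr78 lists as 1, 817 Notch peaks (33.4%, 31.5 to 35.3) overlapped none, 600 overlapped 1, 437 overlapped 2 and 285 overlapped 3. A further 309 (12.6%, 11.3 to 14.0) overlapped 4 or more, up to 8 regulators at 2 peaks. No matching counts were made for the peaks of the other lists. Peaks with more regulators were wider. The median width was 842 bp with 4 or more, 507 bp with 2, 349 bp with 1 and 253 bp with none. Median scores ran the same way, 16.2 with 4 or more, 12.2 with 2, 9.97 with 1 and 8.25 with none, while the 2 peaks with 8 regulators had a median of 12.6. Since a wider peak has more room to overlap, these counts and widths are not independent measures.

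**Figure D2:**
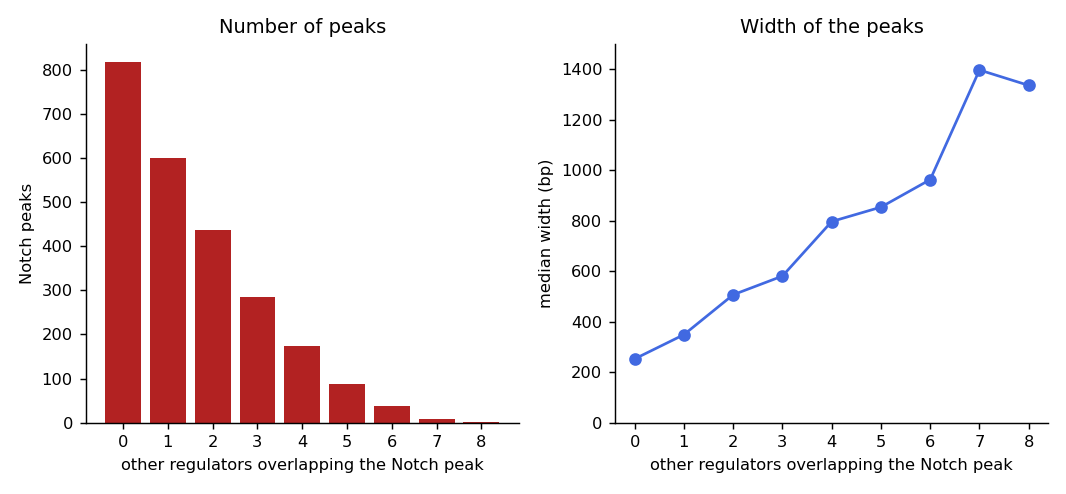
Notch peaks on the arms by the number of other regulators they overlap (horizontal axis, both panels), with the number of peaks on the left and their median width in bp on the right. The 817 peaks with none have a median width of 253 bp, and the 309 peaks with 4 or more have one of 842 bp.

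The regulators differed in how far they followed the strength of the Notch peak. Larval Hr78 was at 81.0% of Notch peaks (77.7 to 84.1) in the highest quartile by score and at 10.6% (8.29 to 13.3) in the lowest. AbdB was at 55.6% (51.5 to 59.5) in the highest quartile and at 6.70% (4.85 to 8.98) in the lowest, and embryonic Hr78 at 58.5% and 4.58%. Lola was at 18.1% against 1.96%, and Stat92E at 13.7% against 0.327%. Of the 106 Notch peaks with Stat92E, 84 were thus in the highest quartile. CG8478 was at 29.4% in the highest quartile and 11.1% in the lowest. The same pair of shares was 6.54% and 1.80% for prd with RF12 and 5.23% and 1.47% for h. It was 5.23% and 2.12% for br and 4.08% and 1.80% for insv. Little change was seen for cnc (2.45% and 1.96%), dm (1.14% and 0.817%) and prd with RF13 (0.817% and 0.654%).

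Su(H) and Cmi followed the Notch score only a little. Su(H) was at 14.4%, 16.8%, 23.0% and 19.8% of Notch peaks in the quartiles from the lowest to the highest score, and Cmi at 14.5%, 16.7%, 22.9% and 20.4%. In both lists the highest share stood in the quartile below the top, and the intervals of the upper 2 quartiles overlapped. The quartiles also differed in width, with medians of 680 bp in the highest and 223 bp in the lowest. When each Notch peak was set to 400 bp around its summit, larval Hr78 was at 80.7% and 12.4% of the highest and lowest quartiles, and Su(H) at 17.3% and 15.03%. On each of the 5 long arms the highest quartile had the larger share for larval Hr78, embryonic Hr78, AbdB, CG8478, Cmi and Su(H).

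Among the Notch peaks that overlapped a given list, the ranks of the Notch peak and of its partner by the authors' scores in their own lists were set side by side. Spearman's rho was 0.61 for larval Hr78 (968 peaks), 0.46 for embryonic Hr78 (547), 0.43 for AbdB (636) and 0.27 for CG8478 (498). It was 0.25 for Lola (154), 0.19 for Stat92E (106), 0.06 for Su(H) (453) and −0.01 for Cmi (456). The remaining lists, with fewer shared peaks, lay between −0.20 for br (86) and −0.01 for insv (62). The points of a list share its libraries, so these coefficients are descriptions.

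**Figure D3:**
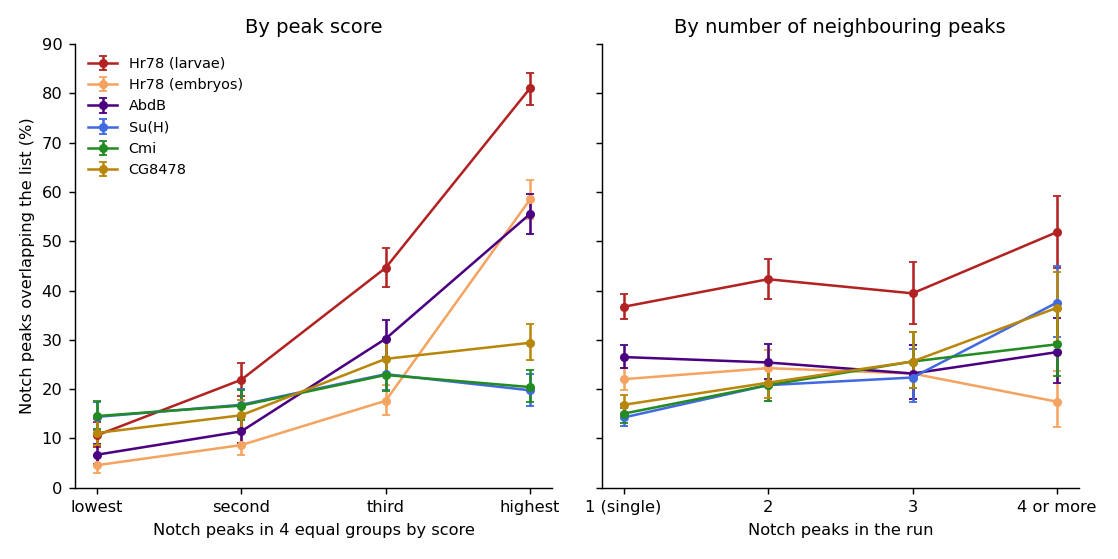
Share of Notch peaks (%, vertical axis) that overlap each of 6 lists, by quartile of the Notch score on the left and by the number of Notch peaks in the run on the right, with 95% exact intervals for counting error. Larval Hr78 reaches 81.0% in the highest score quartile, where Su(H) has 19.8%, while Su(H) reaches 37.6% in runs of 4 or more peaks against 14.3% at single peaks.

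The presence of Su(H) followed the number of Notch peaks nearby. Su(H) was at 71 of 189 Notch peaks in runs of 4 or more (37.6%, 30.6 to 44.9), at 55 of 246 in runs of 3 (22.4%, 17.3 to 28.1), at 127 of 610 in runs of 2 (20.8%, 17.7 to 24.3) and at 200 of 1403 single peaks (14.3%, 12.5 to 16.2). The 71 Notch peaks in the largest runs met 77 separate Su(H) peaks, and all 453 Notch peaks with Su(H) met 531. CG8478 was at 36.5% in runs of 4 or more and 16.8% of single peaks, Cmi at 29.1% and 15.04%, and insv at 6.35% and 1.85%.

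For AbdB and Hr78 of embryos the shares in runs and at single peaks had overlapping intervals. AbdB was at 27.5% of Notch peaks in runs of 4 or more (21.3 to 34.5) and at 26.5% of single peaks (24.2 to 28.9), and embryonic Hr78 at 17.5% (12.3 to 23.6) and 22.0% (19.9 to 24.3). The AbdB difference between runs of 4 or more and single peaks, 1.00 percentage points, depended on how runs were made. It was −0.79 with gaps of up to 2000 bp, −3.35 with gaps of up to 10000 bp, and 9.92 after joining peaks at up to 300 bp (37.3% in runs of 4 or more and 27.4% at single peaks). Larval Hr78 was more frequent in the large runs, at 51.9% (44.5 to 59.2), against 36.7% of single peaks (34.2 to 39.3). Median scores were nearly equal, 10.6 in runs of 4 or more and 10.4 at single peaks, and median widths were 437 and 377 bp. With all Notch peaks set to 400 bp, Su(H) was at 36.5% and 13.3%. On each of the 5 long arms Su(H), Cmi, CG8478 and larval Hr78 were more frequent in runs of 3 or more than at single peaks. AbdB was so on 1 of the 5 arms, and embryonic Hr78 on 1 of 5.

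The same split by runs was made in other lists, each by its own peaks. Su(H) was at 29.0% of Notch peaks in runs of 3 or more and 14.3% of single ones. Among AbdB peaks it was at 54.7% and 23.9% (29 of 53 and 132 of 553 peaks), and among larval Hr78 peaks at 42.9% and 19.5%. It was at 42.4% and 31.2% in CG8478 and at 30.1% and 22.4% in Cmi. The higher share in runs was thus met in all 5 lists examined and is not a feature of Notch peaks alone.

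Notch peaks with Su(H) were wider than those without and differed from them in their partners. The 453 peaks with Su(H) had a median width of 574 bp and lay in runs in 55.8% of cases (51.1 to 60.5), while the 1995 without had 363 bp and 39.7% (37.5 to 41.9). The median fold was 2.99 with Su(H) and 3.03 without, and the median score percentile within the list was 55.0 with and 47.5 without. CG8478 was at 52.5% of peaks with Su(H) and 13.03% of those without, Cmi at 43.5% and 12.98%, and insv at 11.04% and 0.602%. AbdB was at 39.1% and 23.0%, and larval Hr78 at 55.2% and 36.0%. Embryonic Hr78 (23.0% and 22.2%) and Lola (6.402% and 6.27%) were nearly equally frequent, and prd with RF12 was at 0.442% and 4.11%.

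Few Notch peaks had Su(H) by itself. There were 44 with Su(H) and no other regulator, with a median width of 336 bp and a median score percentile of 26.2 within the Notch list, in which the highest score is 100. The 118 Notch peaks with Su(H), Cmi and CG8478 together had a median width of 817.5 bp, a median percentile of 65.4, and lay in runs in 61.0% of cases. Of the 62 Notch peaks with insv, 50 also had Su(H), and 37.1% of the 62 lay on X. The 299 peaks with Su(H), Cmi or CG8478 and no further anti-GFP list had a median percentile of 31.7. The 699 peaks with another anti-GFP list and none of those 3 had one of 71.6. Both kinds were present at 574 peaks, with a median percentile of 68.8, and at 876 peaks neither was, with 29.1. The 21 Notch peaks that overlapped all 5 other anti-GFP lists had a median percentile of 96.8 and a median width of 1071 bp. Notch peaks with Hr78 of both stages numbered 446 and had a median percentile of 86.9, above those with larval Hr78 alone (522 peaks, 63.8) and with embryonic Hr78 alone (101 peaks, 52.9).

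The summits showed how closely the regulators sat within a shared region. Distances were taken from the Notch summit to the nearest summit among the peaks of the other list that overlapped the Notch peak. The median distance was 20 bp for embryonic Hr78, 27 bp for larval Hr78, 37.5 bp for h, 48 bp for AbdB and 49 bp for Stat92E. It was 62.5 bp for CG8478, 95.5 bp for Lola, 96.5 bp for Cmi, 114 bp for Su(H) and 117 bp for insv. The remaining lists lay between 57 bp for prd with RF12 and 430 bp for prd with RF13, with 83 bp for dm, 179 bp for cnc and 218 bp for br. The Notch and the partner summit were within 50 bp of each other at 71.3% of the shared peaks with embryonic Hr78 (67.3 to 75.1), 64.0% with larval Hr78 (60.9 to 67.1), 53.1% with AbdB (49.2 to 57.1) and 33.1% with Su(H) (28.8 to 37.7). The Notch peaks concerned had similar median widths, 618, 626, 639 and 574 bp. Among Notch peaks of 400 to 800 bp the medians were 20 bp for embryonic Hr78, 30 bp for larval Hr78, 36 bp for AbdB and 121 bp for Su(H). Where Su(H) overlapped a Notch peak, its summit thus lay farther from that of Notch than the summits of AbdB or Hr78 did. The shared Notch peaks also differed in strength. Their median score percentile was 55.0 with Su(H), 74.9 with larval Hr78, 76.6 with AbdB and 83.3 with embryonic Hr78. The part of peak strength or of the different material in these distances was not tested.

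**Figure D4:**
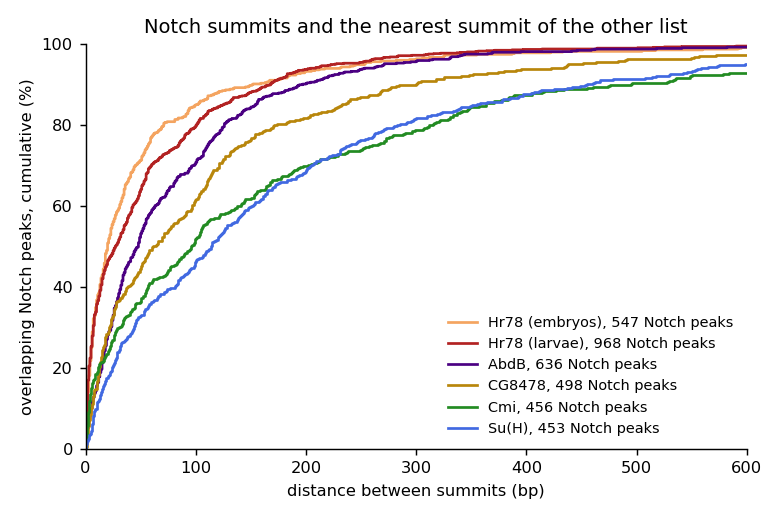
Cumulative share (%, vertical axis) of the Notch peaks overlapping a list, by the distance in bp (horizontal axis) between summits. The distance runs from the Notch summit to the nearest summit among the overlapping peaks of that list, and each line is 1 list. Within 50 bp lie 71.3% for embryonic Hr78, 64.0% for larval Hr78 and 33.1% for Su(H).

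Notch peaks on arm 4 and on the scaffolds off the arms had other partners than those on the long arms. Larval Hr78 was at 59.4% of the 64 Notch peaks on arm 4 (46.4 to 71.5), 45.6% of the 68 on scaffolds (33.5 to 58.1) and 39.0% of the 2384 on the long arms (37.0 to 41.0). Embryonic Hr78 was at 56.3%, 50% and 21.4%, Lola at 20.3%, 17.6% and 5.91%, and h at 12.5%, 10.3% and 2.52%, in the same order of places. Stat92E was at 17 of the scaffold peaks, a share of 25%, and at 6 of the arm 4 peaks (9.38%). Su(H) was at 1 of the 64 Notch peaks on arm 4 (1.56%, 0.0396 to 8.40) and at 452 of the 2384 on the long arms (19.0%, 17.4 to 20.6). No scaffold peak overlapped Su(H), insv or Cmi, 0 of 68 each. With 3 counts as the limit for a count of 0, the share could be as high as 4.41%. The Su(H) list had only 2 peaks off the arms, insv 1 and Cmi 5, so few overlaps were possible there. CG8478 was at 2 arm 4 peaks and AbdB at 5. The Su(H) list had 6 peaks on arm 4 in all and the AbdB list 5, while larval Hr78 had 45, embryonic Hr78 41 and Lola 15, so the low shares of Su(H) and AbdB go with few peaks of these lists there. Median scores of the Notch peaks were 14.1 on arm 4 and 15.2 on scaffolds, and the median width was 488.5 and 347 bp.

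**Figure D5:**
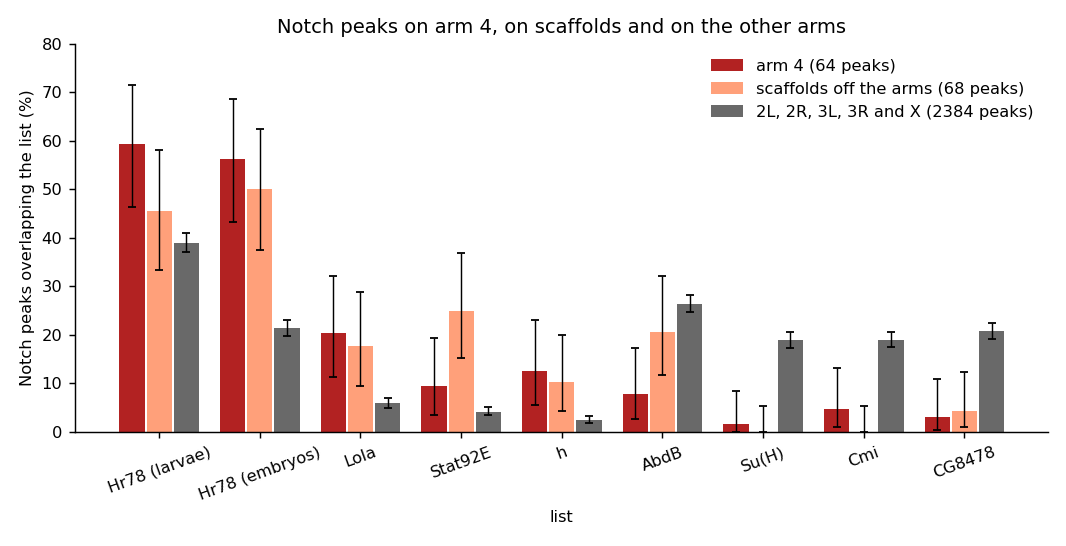
Share (%, vertical axis) of Notch peaks overlapping 9 lists (horizontal axis), for arm 4, the scaffolds off the arms and the 5 long arms together, with 95% exact intervals for counting error. Su(H) is at 1.56% on arm 4, 0% on scaffolds and 19.0% on the long arms, and embryonic Hr78 at 56.3%, 50% and 21.4%.

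The highest-scoring Notch peaks were places of Hr78. The first, on 2R at 15993649 to 15994371, had a score of 51.8 and a fold of 7.07 and overlapped Su(H), Cmi, AbdB, Stat92E, CG8478 and Hr78 of both stages. The next on the arms, on 2R at 1492221 to 1492554, was narrow (334 bp) and had the highest fold of the arms, 7.81, with Hr78 of both stages, Lola and Stat92E. All 10 overlapped Hr78 of both stages, 9 overlapped AbdB, 8 Stat92E and 2 Su(H). In the whole highest quartile by score, larval Hr78 was at 81.0% of Notch peaks, embryonic Hr78 at 58.5% and AbdB at 55.6%. Su(H) was at 19.8% there and Stat92E at 13.7%. Of the other 8 of these 10 peaks, 5 lay on X. These were at 13677399 to 13677853 (score 42.7), 4318984 to 4319531 (42.6), 15880396 to 15881561 (40.3), 16970633 to 16972130 (39.0) and 16041457 to 16042636 (36.7). The peak on 3L was at 24020742 to 24021835 (40.8), and a pair lay on 2R at 1180743 to 1181769 (39.0) and 1238114 to 1238562 (37.3). On the scaffolds, a peak on 2RHet at 369821 to 370226 had a score of 43.1, which makes it the third of the whole list, and overlapped AbdB, Lola, prd with RF12 and Hr78 of both stages.

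Of the 5 highest-scoring Notch peaks with Su(H), 2 were among those just named, the first on 2R and that on X at 16041457. The others lay on 3L at 16044793 to 16046546 (score 36.2), on X at 16042900 to 16043469 (33.8) and on 2L at 6323698 to 6324644 (33.8). All 5 also had AbdB, CG8478 and Hr78 of both stages. The 3 highest with Su(H) and insv lay on 3L at 18752047 to 18752851 (32.3), on 2R at 6317066 to 6318218 (31.2), which is part of the run of 7 described above, and on X at 16110514 to 16111978 (27.6). Each of these 3 had 7 regulators. The 3 highest with h had no Su(H). On arm 4, the peaks at 199757 to 201008 (31.9) and 1047542 to 1048811 (31.2) had h with Lola, Stat92E and Hr78 of both stages, and so did that on 2R at 358471 to 359404 (30.5), which had AbdB as well.

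The 2 Notch peaks with 8 other regulators were unlike in strength. That on 3R at 25598419 to 25599774 had Su(H), insv, h, Cmi, Lola, br, CG8478 and larval Hr78 and a score of 6.75, near the bottom of the list (percentile 6.28). That on X at 12629120 to 12630435 had Su(H), h, Cmi, AbdB, br, CG8478, cnc and Hr78 of both stages and a score of 18.4. A further 8 peaks had 7 regulators each, with scores between 20.4 and 36.2. Arm 2R held those at 11990162 to 11992213, 18157711 to 18159330 and 6317066 to 6318218. Arm 3L held those at 16044793 to 16046546 and 18752047 to 18752851. The others lay on X at 16110514 to 16111978, 2016848 to 2018176 and 8544809 to 8545481. All of these 8 overlapped Cmi, AbdB, CG8478 and Hr78 of both stages, and 7 overlapped Su(H). They were chosen for having the most regulators, so the rule itself favours overlap with the lists most frequent at Notch peaks.

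The widest Notch peak, 2879 bp on 3L at 21017702 to 21020580, had a middling score of 10.3 and 5 regulators, among them Su(H), Cmi and CG8478. The next by width were on 2R at 8473931 to 8476590 (2660 bp) and 10061066 to 10063534 (2469 bp) and on X at 11029728 to 11032070 (2343 bp) and 16226742 to 16229033 (2292 bp). Their scores were 17.8, 18.1, 32.4 and 17.1. All 5 overlapped larval Hr78 and 3 overlapped Su(H).

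Some strong Notch peaks overlapped no other regulator, and the 5 highest had scores between 19.4 and 21.8. They lay on X at 9249653 to 9250414 and 12372302 to 12372803, on 3L at 2166823 to 2167098, and on 3R at 26724443 to 26724761 and 22897398 to 22897933. The one at 12372302 follows directly on the longest gap of that arm. All 5 stood singly, and none was wider than 762 bp. Their score percentiles were 85.9 to 90.2, so every Notch peak on the arms above a percentile of 90.2 overlapped another regulator.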

How the data were processed

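Per the labels' protocols, chromatin from homogenised, sonicated tissue was precipitated with an antibody and made into libraries by tagmentation. CASAVA 1.7.0, BWA, MACS2 and build dm3 are named in the submitters' processing notes, with no settings. Both Notch samples point to 1 list, per the labels. Whether reads were pooled is not stated, nor whether samples came from separate animals, so replicates could not be compared. Each deposited line gave a position, the authors' −log10 p, the authors' fold enrichment (a ratio on a linear scale) and the summit offset, another value the authors deposited, in bp after the start. Fold and score were used within 1 list. The highest rank in the Notch peak names was 2521, and the 5 ranks that have no line are not analysed here.

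Positions were written 1-based. Peaks on the arms entered the comparisons and were taken as shared where 1 bp or more was in common. Runs joined neighbouring peaks with gaps of at most 5000 bp. Summit distances were taken to the nearest summit among the peaks of the other list that overlapped the Notch peak. Scripts were checked on simulated lists. The members, partner lists, classes and rules were chosen with earlier results of these data known.

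The rule for named peaks takes the 10 with the highest score, the 5 widest, the 10 with the most other regulators, the 5 highest-scoring with Su(H), 3 with Su(H) and insv, 3 with h and 5 with no other regulator. It also takes the 5 runs with the most peaks and the longest gap on each arm. Ties went to the wider peak, then to the arm and lower start.

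Alternatives were an overlap of 50% of the shorter peak, peaks up to 500 bp apart, summits within 250 bp, 400 bp around the Notch summit, the higher-scoring 50% of Notch peaks, the 200 highest-scoring peaks of the other list, all scaffolds, each list left out, gaps of 2000 and 10000 bp and distances between summits. Joining at up to 300 bp, 400 bp windows for runs and score quartiles, Notch peaks of 400 to 800 bp for summit distances and arm 4 left out were added after seeing the data. Python 3.11.15 was used, with numpy 2.4.6, pandas 2.3.3, scipy 1.17.1 and matplotlib 3.10.9.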

Additional observations from a re-analysis of the deposited data

How the results depend on the processing

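No paired analysis was possible because each group has 1 list with no value per replicate, and for the same reason no replicate could be left out. Counting peaks up to 500 bp apart gave shares of 22.3% for Su(H), 29.0% for AbdB, 44.2% for larval Hr78 and 27.5% for no other regulator. Summits within 250 bp gave 14.5% for Su(H) and 35.3% for no other regulator. Among the higher-scoring 50% of Notch peaks these were 21.4% for Su(H), 42.9% for AbdB, 62.8% for larval Hr78 and 15.5% for no other regulator. Against the 200 highest-scoring peaks of the other list they were 2.82% for Su(H), 8.09% for AbdB and 8.05% for larval Hr78, which follows from the shorter lists. Leaving out Cmi, AbdB or larval Hr78 gave 36.4%, 37.5% and 38.9% of peaks with no other regulator. The share in runs was 32.1% at gaps of up to 2000 bp, 55.2% at 10000 bp, 26.1% in the higher-scoring 50% and 31.1% after joining. The share in runs of 4 or more minus that at single peaks was 23.3 percentage points for Su(H) and 34.2 in the higher-scoring 50%. For AbdB it was 1.00 and 9.92 after joining, and its sign was not stable (−0.79 at 2000 bp, −3.35 at 10000 bp). The median width with Su(H) minus without was 211 bp, 130 bp by summits and 152 bp up to 500 bp apart. The share of Su(H) in the highest minus the lowest score quartile was 5.39 points, and 2.29 with 400 bp around the summit. The other 42 alternative values of these results lay within the counting interval of the value reported. Of 96 values for the other 12 lists, 66 did. Where a value moved without a cause in its construction, the cause was not tested. Depth is unknown, so a region without a peak is not shown to lack binding.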
